A study of Rattus norvegicus with 8 samples.

Results

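The urea cycle, ornithine and glutamate enzyme genes were described in the livers of 8 male Fischer 344 rats, 4 given D3T and 4 given vehicle, with 1 Affymetrix U34 rat expression array (version A) for each. D3T (3H-1,2-dithiole-3-thione) is a dithiolethione, a sulfur compound known to induce detoxification enzymes. D3T was given by gavage at 0.3 mmol/kg, dissolved in saturated sucrose, on days 1, 3 and 5. The gavage of vehicle rats was 0.2 ml of the sucrose alone, on the same days for replicates 1, 3 and 4, while the label of replicate 2 names no days. All rats were fed AIN 76A chow, and their age is labelled as 6 without a unit. The set comprised 10 genes of the 4736 named on the array (0.211%), found by gene symbol: Cps1, Otc, Ass1, Asl and Arg1 of the urea cycle, Oat and Odc1 that use ornithine, and Glud1, Gls2 and Glul of glutamate and glutamine. They were represented by 21 of 8740 non-control probe sets, a probe set being a group of short oligonucleotides designed to report a transcript. Names that mark shared sequence are carried by both Asl probe sets, all of Cps1 but the dimmest, most of Glul and the dimmer ones of Otc and Odc1. Whether these also report other transcripts was not tested. The members were chosen by their known roles together with the D3T against vehicle differences in signal on these same arrays, and Oat was picked out for its difference. The values of that comparison are therefore given as a description, and the calls of the fit across the whole array are counted without being read as evidence about the set.

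The urea cycle converts ammonia, which is toxic, into urea in hepatocytes. Cps1 encodes carbamoyl phosphate synthetase, which fixes ammonia in the mitochondrion, and Otc encodes the transferase that joins carbamoyl phosphate to ornithine to give citrulline. Ass1 and Asl encode the synthetase and the lyase that turn citrulline into arginine, and arginase, encoded by Arg1, splits arginine into urea and ornithine. Oat encodes ornithine aminotransferase, the mitochondrial enzyme that takes ornithine out of the cycle towards glutamate and proline. Odc1 encodes ornithine decarboxylase, which opens polyamine synthesis. In liver the urea cycle enzymes and the glutaminase encoded by Gls2 are concentrated around the portal tract, whereas Oat and Glul, which encodes glutamine synthetase, are concentrated in hepatocytes around the central vein.

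Oat had lower signals in all D3T livers than in any vehicle liver on both of its probe sets. Glul and Asl were called lower on part of theirs, whereas Cps1, Otc, Ass1 and Arg1 showed no call in either direction. Signals are the deposited MAS5 intensities, the output of an Affymetrix algorithm, with each array rescaled to a common level. Fold changes come from log2 signals fitted with limma over 5244 probe sets, and a call means a Benjamini-Hochberg adjusted p under 0.05 across all of them. Of the 21 probe sets 20 were bright enough to be tested, and 5 of these were called lower and 0 higher: both of Oat, 2 of 4 of Glul and 1 of 2 of Asl. Over all tested probe sets 6.48% were called lower and 4.20% higher. The median log2 fold change was -0.36 over the 20 probe sets, and 0.02 over all 5244. With 1 probe set a gene, the brightest tested, the median over the 10 genes was -0.16, with 2 called lower and 0 higher. By group of enzymes, the median was -0.04 over 8 urea cycle probe sets, -1.31 over 4 ornithine probe sets and -0.43 over 8 glutamate and glutamine probe sets. The ornithine median fell between the Oat probe sets (-1.98 and -1.77) and the uncalled Odc1 ones (-0.33 and -0.85), and describes neither gene. Groups did not overlap for 4 of the 20, all lower, where 11.3% of all tested probe sets were lower and 7.89% higher without overlap. A signal depends on the probes as well as on the transcript, so levels are not ranked between genes.

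**Figure D1:**
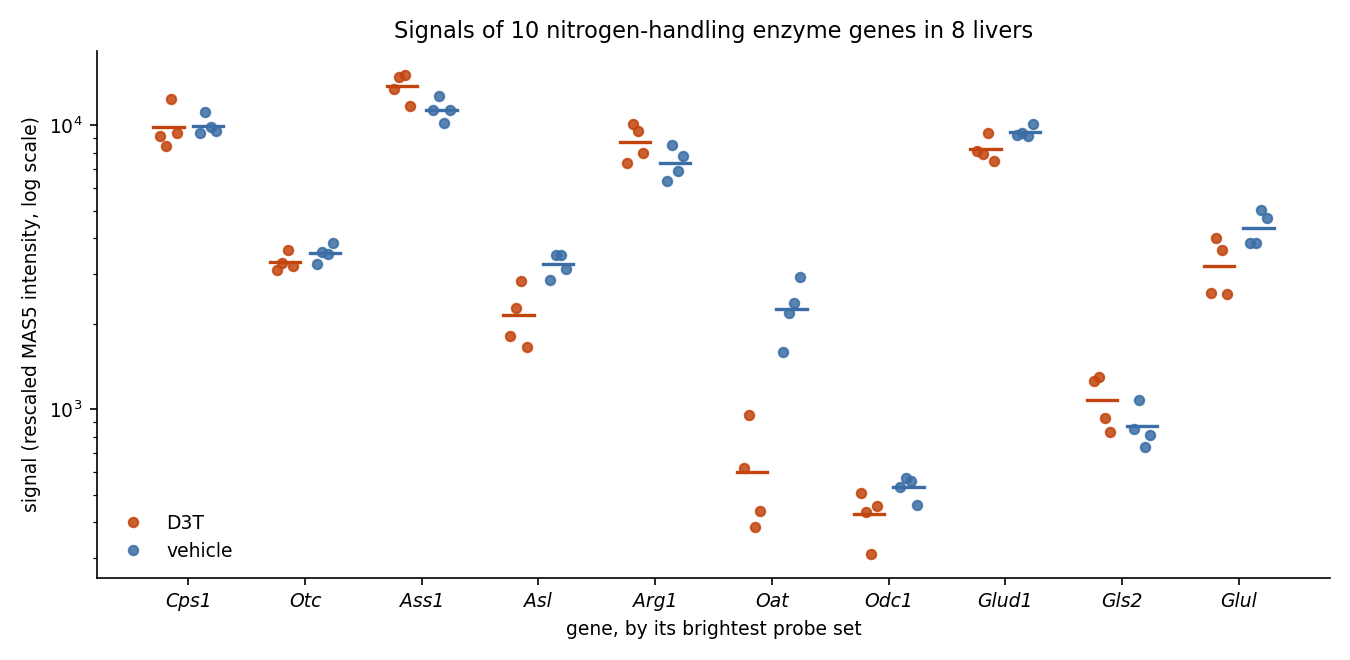
Signal of each of 10 genes in 8 livers (rescaled MAS5 intensity on a log axis), by the brightest tested probe set of each gene, with D3T in orange left of vehicle in blue. Points are livers and bars are group means; the 4 D3T livers lie below all vehicle livers for Oat and for Asl, and the groups overlap for the other 8 genes.

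Sequences upstream of the genes called lower are shown so that a reader can compare them, with the upstream sequence of Ass1, a urea cycle gene with no call, beside them. Each is the 250 bases before the annotated start, from RefSeq on build GRCr8, read 5′ to 3′ on the strand of the gene. Glul has a pair of annotated starts, the downstream one inside the gene as it is annotated from the upstream one, and both are given. Capitals mark matches on either strand to any of 6 motifs, namely the antioxidant response core TGACNNNGC, TATAAA, the E-box CACGTG, the glucocorticoid receptor motif TGTTCT, the TCF/LEF motif CTTTGAT and CCAAT. Oat lies at chr1:196797755-196798004 on the minus strand. The Glul windows lie at chr13:68519250-68519499 and chr13:68575816-68576065, that of Asl at chr12:32295658-32295907 and that of Ass1 at chr3:35149480-35149729, all on the plus strand.
Oat: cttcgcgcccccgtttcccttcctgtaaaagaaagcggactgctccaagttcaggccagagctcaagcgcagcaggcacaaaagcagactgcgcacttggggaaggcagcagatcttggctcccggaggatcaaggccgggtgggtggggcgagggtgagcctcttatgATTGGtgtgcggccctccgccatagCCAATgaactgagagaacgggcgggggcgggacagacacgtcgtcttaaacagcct
Glul, upstream start: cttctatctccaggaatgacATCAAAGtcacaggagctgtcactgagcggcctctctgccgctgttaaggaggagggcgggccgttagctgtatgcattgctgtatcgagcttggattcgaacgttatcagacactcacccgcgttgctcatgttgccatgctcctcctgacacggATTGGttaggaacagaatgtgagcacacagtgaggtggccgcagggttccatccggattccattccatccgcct
Glul, downstream start: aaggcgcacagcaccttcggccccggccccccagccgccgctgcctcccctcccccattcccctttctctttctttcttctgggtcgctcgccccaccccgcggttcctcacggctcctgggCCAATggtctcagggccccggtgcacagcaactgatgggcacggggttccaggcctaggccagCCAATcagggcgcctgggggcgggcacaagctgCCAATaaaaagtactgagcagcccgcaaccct
Asl: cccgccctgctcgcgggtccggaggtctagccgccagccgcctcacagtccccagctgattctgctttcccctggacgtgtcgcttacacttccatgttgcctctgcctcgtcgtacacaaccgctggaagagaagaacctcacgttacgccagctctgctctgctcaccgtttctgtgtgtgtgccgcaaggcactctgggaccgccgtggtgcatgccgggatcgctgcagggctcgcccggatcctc
Ass1: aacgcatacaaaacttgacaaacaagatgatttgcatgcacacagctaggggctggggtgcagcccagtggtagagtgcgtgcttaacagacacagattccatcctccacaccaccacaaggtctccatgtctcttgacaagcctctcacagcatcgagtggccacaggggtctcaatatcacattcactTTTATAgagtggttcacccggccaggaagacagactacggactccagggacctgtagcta

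The Oat window held 2 matches to CCAAT, at 81 to 77 and 56 to 52 bases before the start, the farther one on the opposite strand. The Glul windows held 1 and 3 matches to CCAAT, and the upstream one also a TCF/LEF match at 230 to 224 bases before the start. The Ass1 window held 1 TATAAA match, on the opposite strand at 60 to 55 bases before the start. None of the 6 motifs matched in the Asl window. The table held 11 such windows for 9 of the 10 genes, all but Arg1, and CCAAT matched in 4 of them, those of Oat and Glul and 1 of the windows of Gls2, where 34.0% of 33469 windows of all genes held it. The antioxidant response core matched only in a Gls2 window, against 10.1% of all windows. TCF/LEF matched in 2 of the 11, against 3.15%, and TATAAA in 1, against 12.9%. Neither the E-box (5.59% of all windows) nor the glucocorticoid receptor motif (17.5%) matched in any of the 11. No matches overlapped each other. A match is a run of letters and was not measured as a bound site.

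Oat had signals of 620, 954, 383 and 439 in the D3T livers, against 1592, 2176, 2361 and 2922 in the vehicle livers, on its brighter probe set. The highest D3T liver, replicate 2, lay below the lowest vehicle liver, replicate 1. The means were 599 ± 257 after D3T and 2263 ± 548 with vehicle (SD, n = 4 each), a log2 fold change of -1.98 ± 0.28 (SE), or 3.94-fold lower. The dimmer probe set gave 176, 217, 213 and 129 after D3T, against 503, 477, 660 and 889 with vehicle. Replicate 4 was the highest vehicle liver on both probe sets and replicate 2 the highest D3T liver on both. The dimmer probe set was 3.40-fold lower (-1.77 ± 0.24 on the log2 scale). In the order of log2 fold changes over all 5244 probe sets, starting from the most negative, the Oat probe sets stood at ranks 18 and 30. Over the 8 arrays the pair correlated with a Pearson r of 0.94, and with 0.54 once the group means were taken out; the probe sets share the same RNA extracts. Oat was called lower in all 8 fits that left out 1 array, with log2 fold changes from -2.23 to -1.79.

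A measure of the RNA moved with the groups beside these results. The ratio of the actin 3′ to 5′ control probe sets, which reflects RNA integrity and labelling, was 1.17 to 1.47 in D3T livers and 1.45 to 1.59 in vehicle livers, and that of GAPDH 1.43 to 2.00 after D3T and 1.70 to 2.18 with vehicle. D3T replicate 3, whose actin ratio of 1.47 lay within the vehicle range, was the lowest D3T liver on the brighter Oat probe set (383), the second highest on the dimmer (213), and the highest D3T liver on both Asl probe sets (2841 and 2349). With the actin ratio as a covariate, 35 of 5244 probe sets were called and 0 of the 20 of this set. The log2 fold change of Oat was then -2.03 ± 0.45 on the brighter probe set and -1.33 on the dimmer, that of the second Glul probe set -0.78, that of the third -0.52 and that of Asl -0.27. With the same covariate Ass1 had 0.52 ± 0.15 and the brighter Odc1 probe set -0.67 ± 0.25, neither called. The part of RNA integrity in the differences was not tested.

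Odc1, the other enzyme that draws on ornithine, had 505, 434, 309 and 457 in D3T livers, against 533, 572, 558 and 458 in vehicle livers. The groups overlapped, since D3T replicate 1 exceeded the lowest vehicle liver, replicate 4, whose signal was also close to that of D3T replicate 4. The log2 fold change was -0.33 ± 0.18, with no call. The dim second probe set of Odc1 gave 60.5, 39.5, 74.1 and 39.5 after D3T, against 139, 94.1, 119 and 48.1 with vehicle, and -0.85 ± 0.42 with no call. On both probe sets the mean was lower after D3T, and the pair correlated with a Pearson r of 0.40 over the 8 arrays.

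Glul, the glutamine synthetase gene, was lower on average on all 4 of its probe sets, and 2 of these were called. On the second brightest it had 2226, 2375, 1918 and 2213 in D3T livers, against 3265, 3851, 3334 and 3902 in vehicle livers. These groups did not overlap, with means of 2183 ± 191 after D3T and 3588 ± 335 with vehicle (SD, n = 4 each). The log2 fold change was -0.72 ± 0.12, or 1.64-fold lower, and it was called in all 8 fits without 1 array. The third probe set, 2.08-fold lower (-1.06 ± 0.27), gave 736, 1556, 1306 and 662 after D3T, against 2199, 1521, 2537 and 2180 with vehicle. There the groups overlapped, since D3T replicate 2 exceeded vehicle replicate 2, and the call was kept in 3 of 8 fits without 1 array, those without D3T replicate 2, D3T replicate 3 or vehicle replicate 2. The brightest probe set gave 2570, 4005, 3631 and 2539 after D3T, against 3837, 3853, 5035 and 4725 with vehicle, and was not called (-0.47 ± 0.17). The dimmest was not called either (-0.50 ± 0.22). The dimmest gave 434, 687, 410 and 441 after D3T, against 697, 555, 966 and 572 with vehicle. The 4 probe sets did not follow each other equally. Over the 8 arrays, after the group means were taken out, the brightest and the third correlated with a Pearson r of 0.92, whereas the second and the third, whose names give the same source sequence, had -0.25. With the mean of the 4 probe sets in place of 1, Glul was called lower, at -0.69.

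Glud1, the glutamate dehydrogenase gene, and Gls2, the liver glutaminase gene, had no call on any probe set. The brightest Glud1 probe set had 8123, 7959, 9376 and 7511 in D3T livers, against 9219, 9445, 9214 and 10128 in vehicle livers. All D3T livers but replicate 3 lay below the vehicle range. Its log2 fold change was -0.21 ± 0.10, which was called lower with quantile normalization (-0.32). The second Glud1 probe set had 3726, 5485, 4826 and 3319 after D3T, against 5770, 5072, 5542 and 5834 with vehicle (-0.38 ± 0.16). The third, far dimmer, had 275, 146, 281 and 436 after D3T, against 115, 453, 121 and 66.6 with vehicle, and the opposite sign at 0.89 ± 0.53. This dimmest probe set was called higher without vehicle replicate 2 (1.44), whose signal of 453 stood above 66.6 to 121 in the other vehicle livers. Gls2 had 1253, 1301, 933 and 828 after D3T, against 853, 1080, 738 and 810 with vehicle, with overlapping groups and a log2 fold change of 0.30 ± 0.18. The difference of log2 Glul and log2 Gls2, looked at after their values were seen, was 1.56 ± 0.38 after D3T and 2.33 ± 0.41 with vehicle (SD, n = 4 each), and the groups overlapped.

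**Figure D2:**
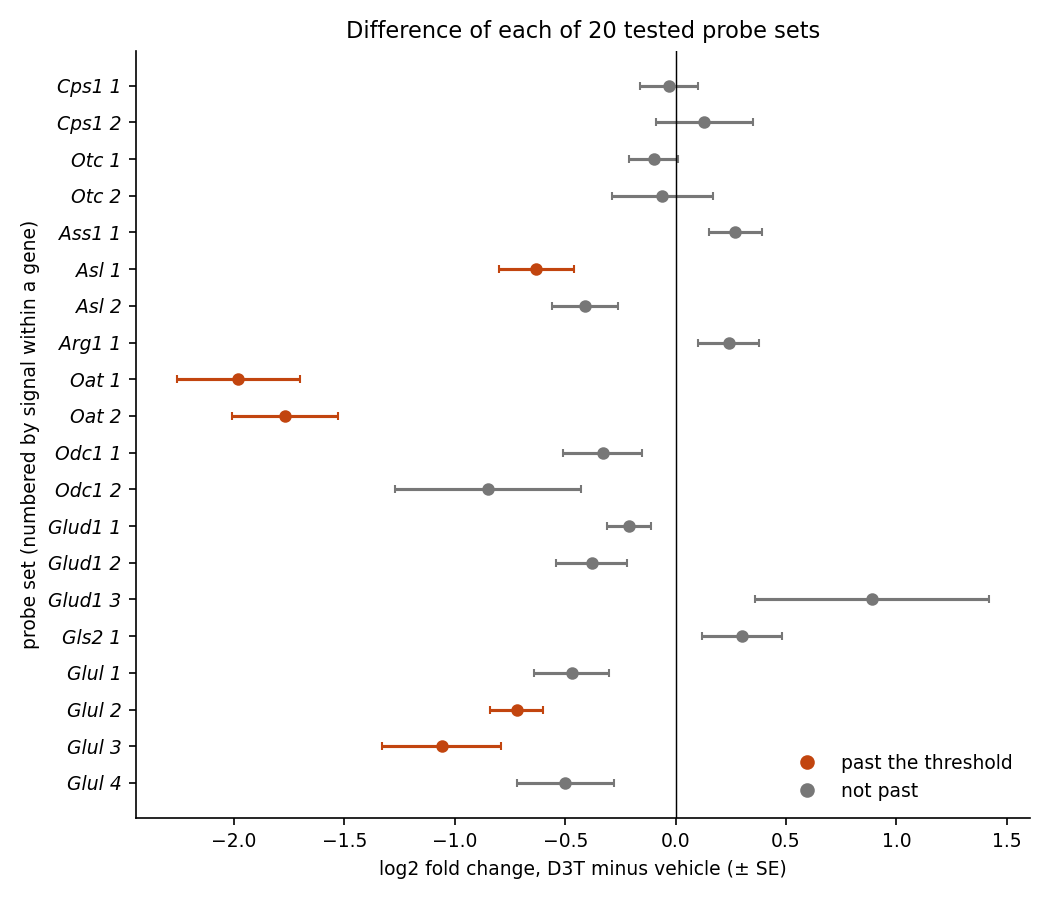
Log2 fold change of D3T over vehicle for each of 20 tested probe sets of the 10 genes, with the standard error of the limma fit as bars and the probe sets numbered from the brightest within each gene. The 5 called probe sets (orange) are both of Oat, the brighter one of Asl and the second and the third of Glul, all below 0; the others are grey.

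Within the urea cycle the 5 enzymes differed in sign, and Asl alone was called. Cps1 had 9191, 8463, 12388 and 9406 in D3T livers, against 9391, 11119, 9858 and 9528 in vehicle livers, with a log2 fold change of -0.03 ± 0.13. The second probe set of Cps1 had 5393, 6017, 5131 and 5325 after D3T, against 2911, 7056, 5373 and 5574 with vehicle. Vehicle replicate 1 was low and replicate 2 high there, and the log2 fold change was 0.13 ± 0.22. The third Cps1 probe set lay at or below the floor of 20.4, the level under which signals were not distinguished, on all 8 arrays and was not tested. Otc had 3092, 3269, 3651 and 3204 after D3T, against 3237, 3581, 3522 and 3844 with vehicle (-0.10 ± 0.11). Its dimmer probe set had 615, 845, 450 and 650 after D3T, against 447, 636, 791 and 792 with vehicle (-0.06 ± 0.23). For both genes the groups overlapped on every tested probe set.

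Ass1, which makes argininosuccinate, had 13453, 14791, 15099 and 11688 in D3T livers, against 11343, 12665, 10198 and 11329 in vehicle livers. Only D3T replicate 4 lay within the vehicle range, and the log2 fold change was 0.27 ± 0.12 with no call. Arg1 had 7404, 10089, 9553 and 7971 after D3T, against 6355, 8515, 6892 and 7828 with vehicle, with overlapping groups and 0.24 ± 0.14. Asl, which cleaves argininosuccinate, differed in the opposite direction: its brighter probe set had 1805, 2271, 2841 and 1652 after D3T, against 2863, 3490, 3483 and 3132 with vehicle. The highest D3T liver, replicate 3, lay just below the lowest vehicle liver, replicate 1. Its log2 fold change was -0.63 ± 0.17, or 1.54-fold lower. The dimmer Asl probe set had 1642, 1915, 2349 and 1666 after D3T, against 2341, 2945, 2629 and 2127 with vehicle. There D3T replicate 3 exceeded vehicle replicates 1 and 4, and the log2 fold change was -0.41 ± 0.15 without a call. The pair correlated with a Pearson r of 0.94 over the 8 arrays, 0.86 within groups. The Asl call held in 1 of 8 fits without 1 array, the one without D3T replicate 3, and was lost with no filter on dim probe sets, with no intensity trend and with the mean of both probe sets (-0.52). The difference of log2 Asl and log2 Ass1, a contrast chosen after the values were seen, was -2.90, -2.70, -2.41 and -2.82 after D3T, against -1.99, -1.86, -1.55 and -1.85 with vehicle. It was lower by 0.90 ± 0.14 (SE) in D3T livers, without overlap.

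Oat was set against the urea cycle within each liver, which removes any factor that scales all signals of an array. The log2 signal of Oat minus the mean log2 signal of the 5 cycle enzymes was -3.15, -2.71, -4.22 and -3.62 in D3T livers, against -1.85, -1.65, -1.37 and -1.12 in vehicle livers. The groups did not overlap, with means of -3.43 ± 0.65 after D3T and -1.50 ± 0.32 with vehicle (SD, n = 4 each). The change was -1.93 ± 0.36 (SE), so that Oat was 3.80-fold lower relative to the cycle. The mean of the cycle enzymes itself was 12.56 ± 0.18 on the log2 scale after D3T and 12.61 ± 0.10 with vehicle. Against single enzymes the change of Oat was -2.25 ± 0.35 relative to Ass1, -2.22 ± 0.32 relative to Arg1, -1.95 ± 0.44 relative to Cps1, -1.87 ± 0.35 relative to Otc and -1.35 ± 0.39 relative to Asl. The groups did not overlap in any of the 5. The dimmer Oat probe set gave -1.72 ± 0.25 relative to the cycle. Relative to the other ornithine enzyme, Odc1, Oat changed by -1.64 ± 0.34, and relative to Glul, by its brightest probe set, by -1.50 ± 0.31. Leaving out each array in turn gave changes from -2.17 to -1.66 relative to the cycle.

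**Figure D3:**
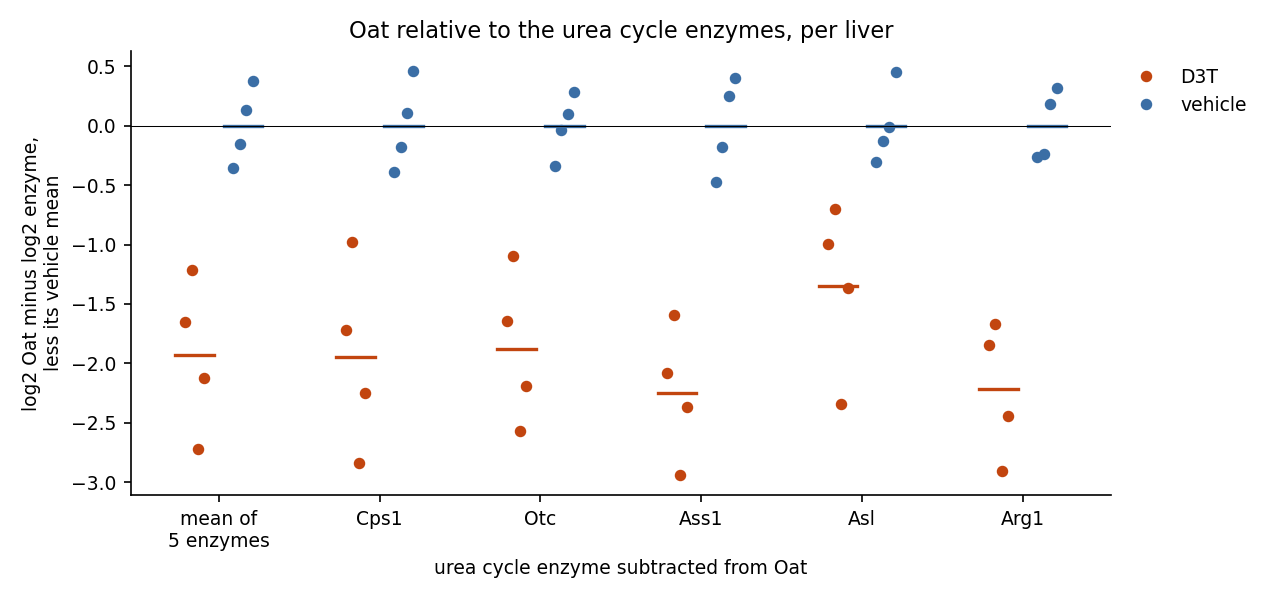
Log2 signal of Oat minus log2 signal of each urea cycle enzyme, or of their mean, in each liver, less the mean of the 4 vehicle livers; D3T in orange left of vehicle in blue, bars are group means. The D3T livers lie below all vehicle livers in every column, and the difference is smallest relative to Asl.

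Genes whose log2 signal followed that of Oat most closely over the 8 arrays were Hnrnpa2b1 (an RNA-binding protein), Nek9 (a kinase), Elovl5 (a fatty acid elongase), Tnks2 (a tankyrase) and Car3 (a carbonic anhydrase). Their Pearson r was 0.989, 0.973, 0.970, 0.969 and 0.968, and 0.93, 0.83, 0.80, 0.83 and 0.78 after the group means were taken out. These arrays share the group difference and the same RNA extracts, so the r is a description. All 5 were called lower, where 6.48% of all tested probe sets were. Genes picked for following Oat over both groups carry its group difference, so this count comes with the choice. Car3 averaged 1178 ± 342 after D3T and 4694 ± 859 with vehicle (SD, n = 4 each), 4.05-fold lower, and Elovl5 averaged 4692 ± 933 after D3T and 8036 ± 214 with vehicle, 1.74-fold lower. Hnrnpa2b1 was 1.63-fold, Nek9 5.33-fold and Tnks2 2.17-fold lower. Both Nek9 and Tnks2 were dim. Nek9 averaged 33.3 ± 10.5 after D3T, near the floor of 20.4, and 172 ± 29.4 with vehicle. Tnks2 averaged 75.8 ± 19.6 after D3T and 164 ± 35.6 with vehicle. Among the other 9 genes of the set, Glul came nearest to Oat with an r of 0.773, followed by Asl with 0.743, while Ass1 had the most negative, -0.623. That order followed the group difference. With the group means taken out, Gls2 had 0.52, Glul 0.46, Arg1 0.38, Odc1 0.27 and Ass1 0.15. Otc then had 0.06, Asl 0.01, Glud1 -0.14 and Cps1, the most negative, -0.61.

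Of 44 further genes that feed, use or surround the cycle, 19 were tested, of which 2 were called higher and 0 lower. Over all tested probe sets 4.20% were called higher and 6.48% lower. Car5a, the mitochondrial carbonic anhydrase that supplies bicarbonate to carbamoyl phosphate synthetase, was higher, with 1292, 1305, 1171 and 1269 in D3T livers, against 766, 832, 815 and 717 in vehicle livers. This was a 1.61-fold difference (0.69 ± 0.11 on the log2 scale) without overlap, and the call was 1 of 3 among the tested partners of the cycle. The list of proline, glutamate and transaminase genes had no call among 7, with a median of 0.16. Its brightest member, the mitochondrial aspartate aminotransferase gene Got2, averaged 3679 ± 510 after D3T and 4486 ± 380 with vehicle (SD, n = 4 each). Among 9 genes of polyamine, creatine and nitric oxide metabolism the median was 0.17 and the single call was Oaz2, an antizyme that restrains ornithine decarboxylase. Oaz2 had 13739, 16150, 20015 and 12515 after D3T, against 10576, 10276, 10855 and 9885 with vehicle, 1.48-fold higher without overlap. Its relative Oaz1 was not called, at -0.46 ± 0.14, but also had no overlap, in the opposite direction. It ran from 2252 to 3366 after D3T and from 3477 to 4142 with vehicle. By its brighter probe set Ddah1, which degrades methylarginines, was not called (0.43 ± 0.15), whereas the dimmer one was called higher (1.13 ± 0.20).

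Other genes known to be concentrated around the central vein did not share 1 direction. Of 6 tested, Car3 and Cyp1a2, a cytochrome P450, were called lower and 0 higher by their brightest probe sets, with a list median of 0.10. Calls over all tested probe sets were 6.48% lower and 4.20% higher, for this list and those below. Cyp1a2 had 1309, 1546, 1486 and 820 in D3T livers, against 2706, 2487, 2845 and 3509 in vehicle livers, 2.28-fold lower, and its other probe sets were also called lower. Cyp2e1, an ethanol-oxidising P450 of the same zone, had 27977, 28922, 28824 and 30995 after D3T, against 23544, 25315, 20763 and 27243 with vehicle, without overlap but with no call on that probe set (0.28 ± 0.11), while both of its others were called higher. Of 8 genes known from the portal zone 0 were called, with a median of -0.15. The brightest of these, Fbp1 of gluconeogenesis, averaged 12379 ± 2010 after D3T and 12326 ± 559 with vehicle (SD, n = 4 each). Among 9 genes linked to glucocorticoids or C/EBP factors, which also drive urea cycle genes, 1 was called: Cebpb, lower with 1440, 1867, 1492 and 1544 after D3T, against 2559, 2480, 2016 and 2479 with vehicle. That list had a median of -0.29.

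**Figure D4:**
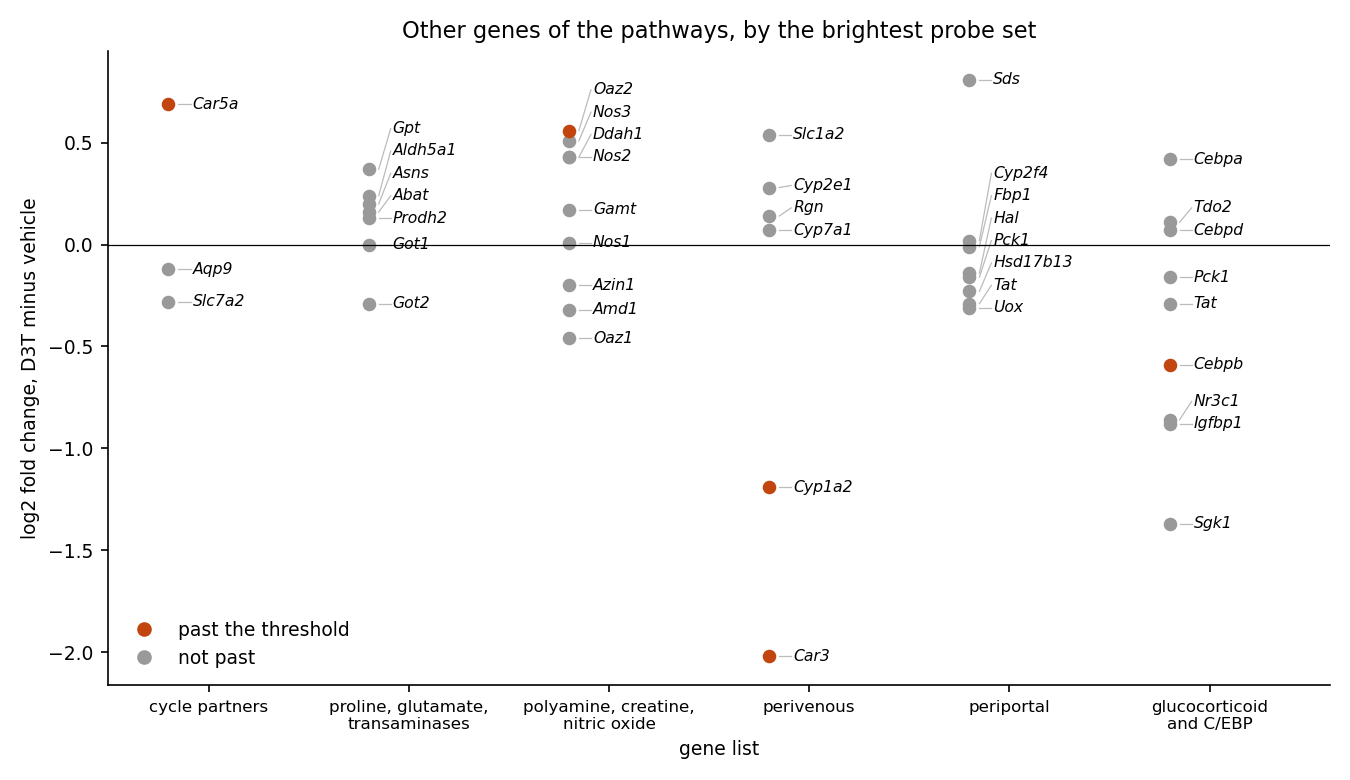
Log2 fold change of D3T over vehicle for the tested genes of 6 related lists, by the brightest probe set of each gene; orange points were called and grey ones were not. Car5a and Oaz2 are called above 0, and Cyp1a2, Car3 and Cebpb below 0.

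Hepatocyte markers such as Alb and Apoa1 were bright on all arrays by their brightest probe sets. Of 9 hepatocyte markers tested Fgb (-0.80 ± 0.16) was called lower and Hnf4a (0.50 ± 0.14) higher, with a median of 0.28. Dimmer probe sets of Fga (-1.19 ± 0.13) and Apoa1 (-0.48 ± 0.12) were also called lower, and the other Hnf4a probe sets were not called. Of 23 tested markers of macrophages, endothelium, stellate cells, bile duct and blood, 4 were called lower (C1qb, Lyve1, Col3a1 and Cd74) and 1 higher (Cd14). The shares over all tested probe sets were 6.48% lower and 4.20% higher. Summed macrophage marker signals ran from 4431 to 5397 in D3T livers and from 5457 to 6104 in vehicle livers. The summed signals of blood cell markers ran from 8012 to 10711 after D3T and from 11925 to 16846 with vehicle. This blood sum was mostly Hbb, which averaged 8478 after D3T and 12134 with vehicle (-0.51 ± 0.16, not called). Sums of endothelial markers ran from 586 to 813 after D3T and from 747 to 944 with vehicle. Those of bile duct markers ran from 418 to 523 after D3T and from 296 to 474 with vehicle. The sum of stellate cell markers, from 7487 to 10028 after D3T and from 6534 to 9887 with vehicle, was mostly the brightest Sparc probe set, which averaged 7242 after D3T and 5427 with vehicle (0.42 ± 0.15, not called). By gene, 4 of 6 stellate cell markers had negative log2 fold changes (Col3a1 -0.90, Vim -0.88, Col1a2 -0.67 and Reln -0.53), with a list median of -0.60, and another Sparc probe set was called lower (-0.77). The list medians were -0.20 for macrophages, -0.23 for endothelium, 0.17 for bile duct and -0.32 for blood. The blood marker S100a9 lay at or below the floor on all arrays. The part of cell makeup in the results above was not tested, and in whole liver fewer cells of a type and less RNA per cell cannot be told apart.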

How the data were processed

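Liver RNA of 8 rats was hybridised to 1 oligonucleotide array per rat. The authors deposited a linear signal intensity for every probe set, computed with MAS5 per the submitters' processing notes, with its version, scaling target and detection calls each not given in the sources used here. The 2% trimmed means of the deposited arrays ran from 500.8 to 501.0. Precision is limited by the number of arrays.

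Arrays were brought to a 2% trimmed mean of 500, signals under the 20th percentile of all values (20.4) were raised to it, and values were turned into log2. Without the 59 control probe sets of 8799, the 60% of 8740 with the highest mean log2 signal were fitted with limma 3.58.1 in R 4.3.3 (lmFit, then eBayes with trend), tested on simulated data with known changes. Means ± SD of single genes are of linear signals, and those of differences between genes and of the cycle mean are of log2 values. Fold changes are ratios of geometric means.

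Genes were named from the platform annotation. Of 8740 probe sets 7006 matched 1 symbol, 308 several and 1426 none, and genes were named only where 1 matched. A gene stands by its brightest tested probe set unless said otherwise. Members, lists and contrasts were chosen with earlier results of these data known. Named genes were the members, per list up to 3 called genes with the largest change or else the brightest one, and the 5 genes most correlated with Oat. Oaz1, Ddah1, Cyp2e1, Alb, Apoa1, Fga, Hbb, Sparc, Vim, Col1a2, Reln and S100a9 were named after their values were seen. Promoter windows of 9 of the 10 genes come from RefSeq (GRCr8). Same-numbered samples of the groups did not deviate together (correlations from -0.20 to 0.06), so the numbers were not treated as pairs. Alternatives were other scaling, floors, filters and variance models, a replicate block, an actin 3′/5′ covariate, averaged probe sets and leaving out each array.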

Additional observations from a re-analysis of the deposited data

Results flagged for a closer look

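On the dimmest Glul probe set D3T replicate 2 stood apart from the other D3T livers, at 687 against 410 to 441. Its gap to the nearest of them was 0.856 of the range of the group on the log2 scale, above Dixon's 95% critical value for 4 samples. It was the single such case among 42 groups examined, where chance gives about 2.1. Without that liver the probe set had a log2 fold change of -0.67, still not called.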

How the results depend on the processing

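The count of called probe sets over the whole array, 560, was 309 with no filter, 333 with no intensity trend, 290 with the replicate block and 35 with the actin covariate, and 240 to 695 when 1 array was left out. Oat, picked out for its difference, was lower under all 18 alternatives, with log2 fold changes from -2.23 to -1.79. It lost its call only with the actin covariate (-2.03). The filters, the intensity trend and the replicate block could not change its fold change, which was -1.98 with each, and bear only on the call. The change of Oat relative to the urea cycle ran from -2.18 to -1.66 over 15 alternatives, each within 1 SD of the reported -1.93. Rescaling and the replicate block could not move that change. The replicate block left Oat called at -1.98 and removed the call of the third Glul probe set (-1.06); 4 of the 20 probe sets were then called lower. The brighter Asl probe set was called in 7 of 18 alternatives and the third Glul probe set in 8 of 17, always with the same sign. The 3 probe sets called in all 8 fits without 1 array were both of Oat and the second of Glul. Signs changed without any call for both Cps1 probe sets, the dimmer Otc one and, with the mean of its probe sets, Glud1 (0.10). The cause of the losses with the actin covariate was not tested. The median of all tested probe sets was 0.02 under each scaling. Among uncalled genes, the actin covariate moved Ass1 from 0.27 to 0.52 and Odc1 from -0.33 to -0.67, and averaged probe sets moved Odc1 to -0.59. With 4 arrays a group, the lack of a call does not show equality.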
